A study of Mus musculus with 7 samples.

Results

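The cytosolic ribosomal protein genes were examined in RNA from sorted mouse bone marrow cells. Members were taken by gene name alone: Rpl or Rps followed by a number with an optional a, x or l, the acidic stalk genes Rplp0 to Rplp2, and Rpsa, with hyphenated names left out. This gave 83 of the 50435 gene rows, 51 for the large and 32 for the small subunit. A mean of at least 1 RPM (reads per 1000000 reads of a library) over the 7 libraries was required for testing, and 81 members passed. Rpl10l and Rpl39l did not.

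Recipients were irradiated wild-type mice given Zbtb46dtr marrow, which carries a diphtheria toxin receptor under the control of Zbtb46, a transcription factor gene of classical dendritic cells. When 8 weeks had passed they were injected intraperitoneally with 200 ng of diphtheria toxin in 100 µl PBS (the DT group, 3 samples) or with 100 µl PBS alone (the PBS group, 4 samples), and marrow was collected 1 day later. All 7 samples therefore share irradiation and the Zbtb46dtr graft; strain, age and pooling of animals are not stated. Cells were sorted as negative for the lineage markers CD45, Ter119, Gr1 and CD11b, positive for CD31 and negative for Sca1, a gate meant for sinusoidal endothelial cells, and the design asks how their RNA changes when dendritic cells are ablated.

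Each ribosome is built from a small subunit, which reads the mRNA, and a large subunit, which joins amino acids. Nearly every protein of either subunit is encoded by its own gene and is needed in equal copy number, so cells keep the output of these genes in step. Their mRNAs begin with a run of pyrimidines, the terminal oligopyrimidine motif, through which mTOR signalling and Larp1 set how strongly they are translated, and they are most abundant in growing cells such as early blood progenitors. The mammalian genome also carries many processed pseudogenes of them, copied back from mRNA.

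Start regions of the members are shown because this pyrimidine run is the sequence feature known from the family's mRNAs. RefSeq start regions on GRCm38.p6, each reaching from 250 bases before to 50 bases after an annotated start, matched 61 of the 83 members and gave 73 regions. The stretches run 5′ to 3′ on the strand of the gene, from 60 bases before to 15 bases after the start, and capitals mark the longest run of C and T where it reached at least 8 bases. Rplp2 (chr7:141447591-141447665, plus strand) and Rps6 (chr4:86857353-86857427, minus strand) are named members with such a run, Rps18 (chr17:33955651-33955725, minus strand) and Rpl28 (chr7:4792905-4792979, plus strand) show longer ones, and Rps27 (chr3:90213634-90213708, minus strand) belongs to a gene whose copies took most of the family's reads. Rpl4 (chr9:64173327-64173401, plus strand) and Rpl3l (chr17:24727766-24727840, plus strand) had the smallest differences between the groups among coding members.
Rplp2: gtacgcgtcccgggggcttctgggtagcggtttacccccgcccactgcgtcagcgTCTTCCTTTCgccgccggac
Rps6: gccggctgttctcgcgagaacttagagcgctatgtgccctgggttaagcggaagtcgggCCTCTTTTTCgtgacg
Rps18: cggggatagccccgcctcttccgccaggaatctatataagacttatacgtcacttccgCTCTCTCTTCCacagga
Rpl28: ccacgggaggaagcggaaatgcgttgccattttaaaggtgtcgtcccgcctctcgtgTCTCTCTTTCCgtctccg
Rps27: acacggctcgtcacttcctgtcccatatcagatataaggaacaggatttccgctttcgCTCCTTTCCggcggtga
Rpl4: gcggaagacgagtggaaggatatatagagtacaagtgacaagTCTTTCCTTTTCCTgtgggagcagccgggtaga
Rpl3l: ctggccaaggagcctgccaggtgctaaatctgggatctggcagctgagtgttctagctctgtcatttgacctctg
The longest run was 10 bases in Rplp2 and Rps6, 11 in Rps18 and Rpl28, 9 in Rps27, 14 in Rpl4 and 5 in Rpl3l. A run of at least 8 bases that are each C or T, on the gene's strand and touching the window from 10 bases before to 20 after the start, was found in 31 of the 73 member regions (42.5%), against 16.9% of all 32851 RefSeq start regions. It was found in 20 of 45 regions of the large and 11 of 28 of the small subunit. The letters CCGGAAG on either strand, the core of the site of the GA-binding protein, were found in 26 member regions (35.6%) against 8.86% of all. TATAA in the 40 bases before the start was found in 4 (5.48%) against 4.23% of all. These are matches of letters at annotated starts, which can lie some bases from the start used.

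Ribosomal protein transcripts were less abundant in the DT libraries. The members together made up 2.10%, 3.33%, 2.46% and 2.65% of the reads of PBS 1 to 4 and 1.55%, 1.60% and 1.51% of DT 1 to 3. The DT libraries lay close together and all below the lowest PBS library, and PBS 2 was the highest. The group means were 2.63% ± 0.517 (SD, n = 4) in PBS and 1.55% ± 0.0477 (SD, n = 3) in DT, a ratio of 0.590, and this sum carries no test. In bulk RNA, fewer cells of a type and less RNA per cell cannot be told apart.

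Gene by gene, 72 of the 81 tested members were lower in DT and 0 were higher, against 18.6% lower and 13.4% higher among all 14100 tested genes (limma on log2(RPM + 1), Benjamini-Hochberg adjusted p under 0.05 over all tested genes). Highly expressed genes were called more often. Among the 1615 genes that averaged 100 RPM or more, 34.3% were lower and 19.6% higher. The median log2 change of the members was -0.89, with quartiles of -1.02 and -0.73 and a range from -1.27 to 0.84. The median of all tested genes was itself -0.23, so the members' median lay 0.66 below it. In 76 members every DT library was below every PBS library, a pattern seen in 24.7% of all tested genes and in 40.1% of those at or above 100 RPM. In 1 member, Rps4l, every DT library was above every PBS library (16.1% of all tested genes, 22.0% of those at or above 100 RPM), and in 4 the groups overlapped.

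**Figure D1:**
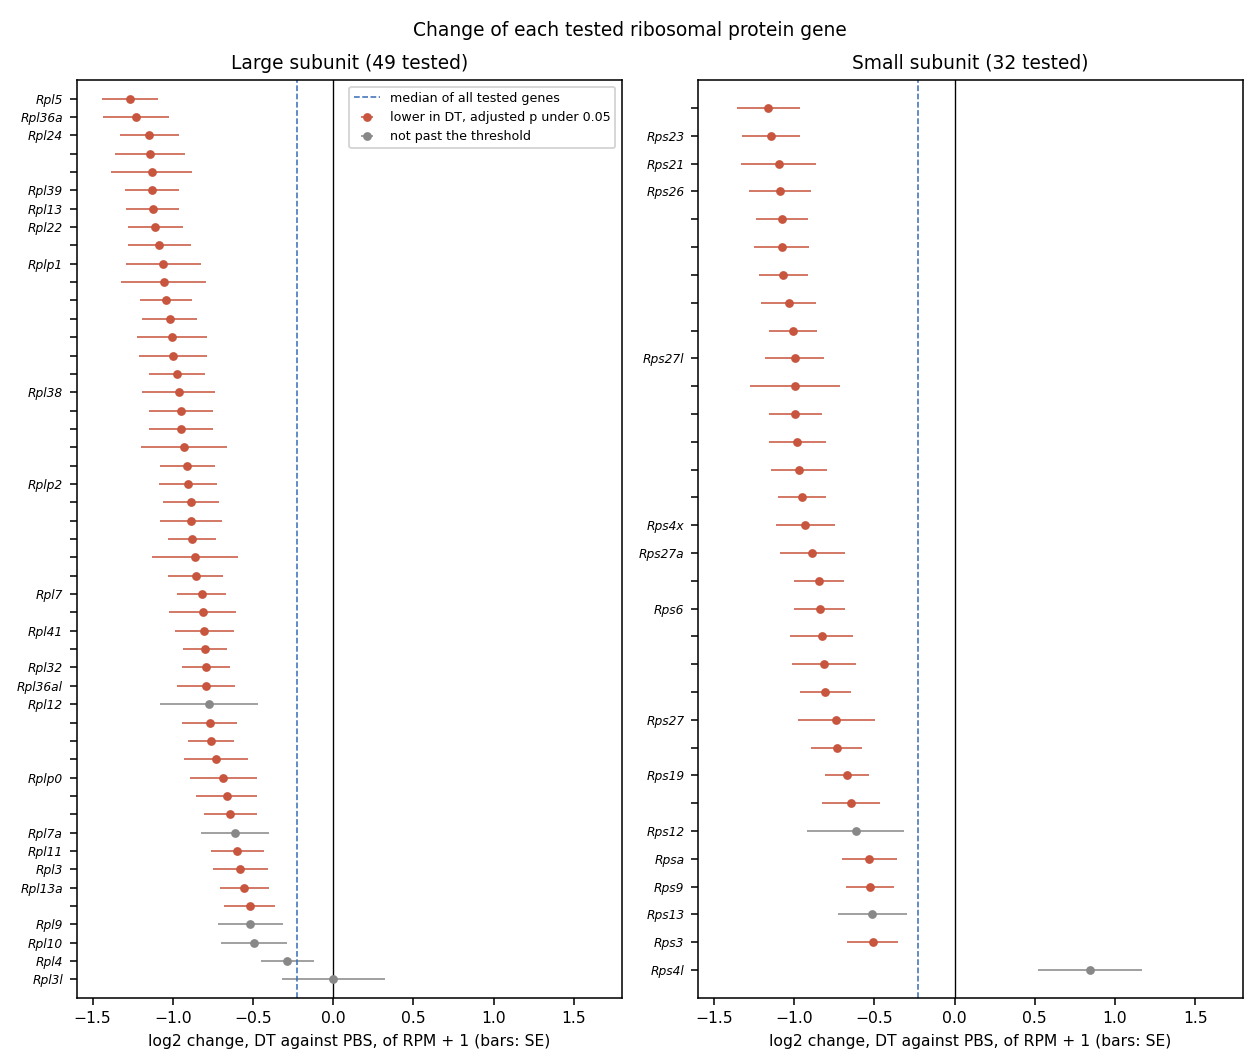
Log2 change between DT and PBS (horizontal axis, of RPM + 1) of each of the 49 large and 32 small subunit genes that passed the filter, with standard errors as bars. Red points mark genes that passed the test, all lower in DT, and grey points the 9 others; the dashed line is the median of all tested genes, -0.23, and nearly all members lie to the left of it. Gene names are given for members described in the text.

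Both subunits were lower in DT, with medians close to each other. In the large subunit 43 of 49 tested members were lower, with a median log2 change of -0.88, and in the small subunit 29 of 32, with a median of -0.91. The summed large subunit genes in DT were at 0.592 of their PBS level and the summed small subunit genes at 0.587. The ratio of the large to the small subunit sum was 1.32, 1.37, 1.34 and 1.33 in PBS 1 to 4 and 1.35, 1.34 and 1.37 in DT 1 to 3. These ratios overlap between the groups, with means of 1.34 ± 0.0221 (SD, n = 4) and 1.36 ± 0.0133 (SD, n = 3).

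The members moved together across libraries. PBS 2 was the highest of all 7 libraries in 76 of the 81 tested members, and PBS 1 was the lowest PBS library in 71. DT 3 was the lowest of all libraries in 49 members, DT 1 in 23 and DT 2 in 8. The coefficient of variation of a member had a median of 20.4% within PBS and 6.68% within DT, so most of the error of these comparisons came from the PBS libraries. Without PBS 1, 76 members were lower in DT (25.7% of all tested genes), and without PBS 2, 70 were (16.6%). Without DT 3 the count was 50 (8.61%). Median-ratio scaling left 56 lower (9.37%), no filter 52 (5.75%) and the replicate block 59 (11.2%), while sample weights gave 75 (27.1%).

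**Figure D2:**
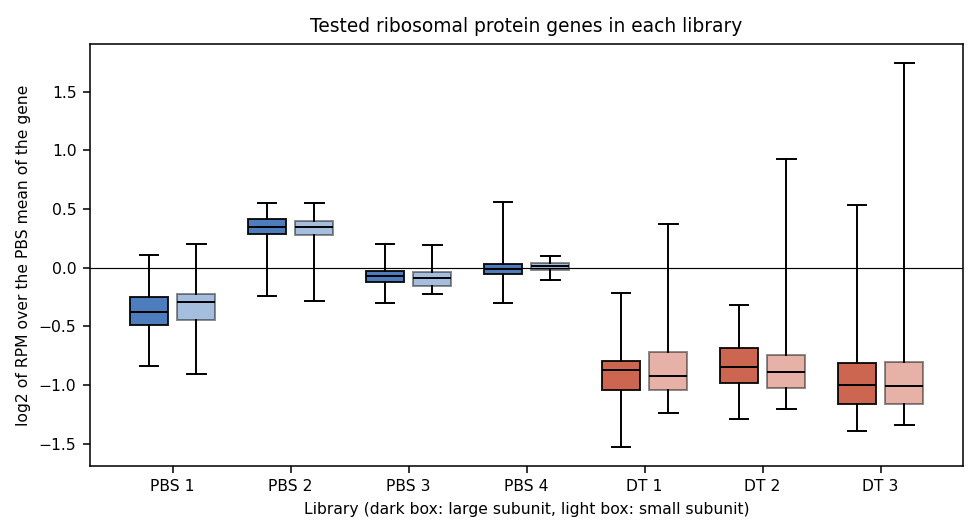
Each library's level of the tested members on a log2 scale relative to the member's mean over the 4 PBS libraries, with boxes for the quartiles and whiskers to the lowest and highest member, dark for the large and light for the small subunit. PBS 2 is shifted upwards and PBS 1 downwards as a whole, and the 3 DT libraries are shifted further down than any PBS library.

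The summed markers of several blood cell types differed between the groups, and the sums of others overlapped. The summed level of 17 neutrophil markers was 2089 to 4693 RPM in PBS and 60663 to 65188 RPM in DT, and that of 16 monocyte and macrophage markers 470.0 to 978 and 7567 to 9551 RPM. The 17 erythroid markers summed to 1160, 11669, 8004 and 7146 RPM in PBS 1 to 4 and to 2471, 3194 and 2820 RPM in DT 1 to 3, and 9 of these were lower and 4 higher in DT. The erythroid sums of the groups overlapped, with PBS 1 the lowest of all 7 libraries. The ribosomal protein sum was 20976, 33288, 24611 and 26502 RPM in PBS 1 to 4 and 15102 to 16046 RPM in DT. Among the PBS libraries this sum and the erythroid sum were both lowest in PBS 1 and highest in PBS 2. The order of PBS 3 and PBS 4 differed between them. Sums were 8288 to 13677 RPM in PBS and 8125 to 9206 RPM in DT for 16 B lineage markers, 55.7 to 122 and 394 to 416 RPM for 12 T and natural killer markers, and 514 to 582 and 333 to 378 RPM for 9 progenitor markers. The B lineage sums overlapped, but 10 of the 16 markers were lower in DT (62.5%, against 18.6% of all tested genes) and 1 was higher. Their median log2 change was -0.87, with a range from -1.52 to 5.80. Of the progenitor markers 1 was lower and 3 were higher in DT, with a median log2 change of -0.07. The 9 endothelial markers, among them Cdh5, Kdr and Tek, summed to only 0.923 to 6.90 RPM in PBS and 7.42 to 11.9 RPM in DT, and all 9 were at the offset that stands for 0 in at least 1 library. The 6 sinusoidal markers reached 11.0 to 17.8 and 98.7 to 342 RPM, most of it Vcam1, which other marrow cells also express (7.51 to 13.5 RPM in PBS, 95.8 to 334 RPM in DT). The defining RNA of the labelled cell type was thus low in all libraries, and the highest single value among the 9 endothelial markers was 5.07 RPM, for Esam in DT 2. What part these differences in blood cell RNA have in the lower ribosomal protein level was not tested.

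**Figure D3:**
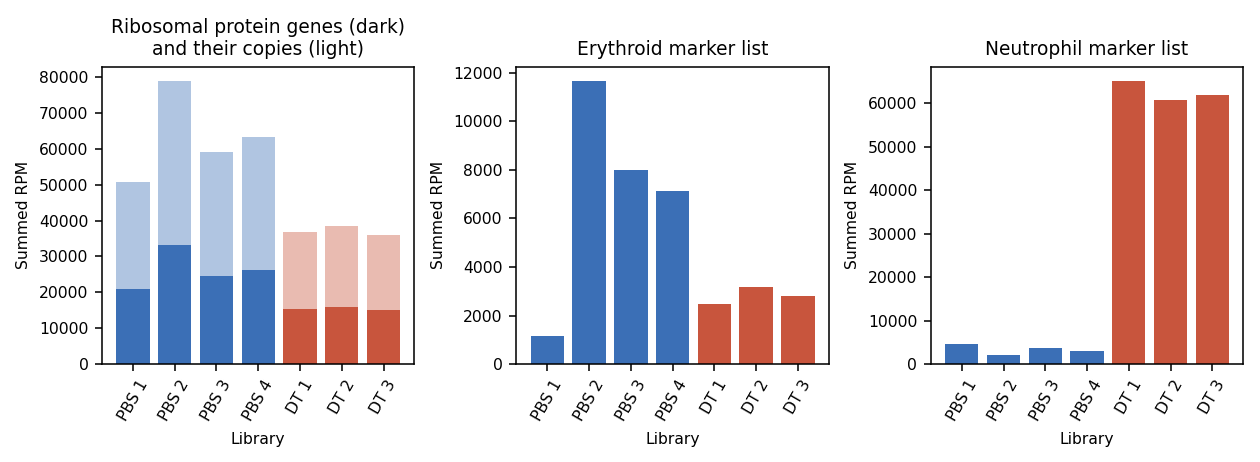
Summed RPM in each library (PBS blue, DT red) of the coding ribosomal protein genes (dark) with their pseudogene copies stacked on top (light, described with the pseudogenes), of the erythroid markers and of the neutrophil markers, on separate vertical axes that start at 0. The 3 DT libraries have the lowest ribosomal protein sums, PBS 1 has the lowest erythroid sum (1160 RPM), and the neutrophil sum is at least 60663 RPM in DT and at most 4693 RPM in PBS.

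The stalk genes encode the lateral arm of the large subunit that recruits the translational GTPases, with Rplp0 as its base and Rplp1 and Rplp2 as its flexible acidic tips. Rplp0 (chr5:115559467-115563727, mm10, GENCODE annotation) was at 1016, 1944, 1353 and 1389.7 RPM in PBS 1 to 4 and at 789, 931 and 874 RPM in DT 1 to 3. Rplp1 (chr9:61913284-61914542) was at 254, 560.2, 345 and 371 RPM in PBS and at 184, 185 and 159 RPM in DT. Rplp2 (chr7:141447370-141451585) was at 283, 499, 348 and 385 RPM in PBS and at 202, 202 and 189 RPM in DT. In all 3 genes the DT libraries lay below every PBS library and PBS 2 was the highest. All 3 fell: the log2 change was -0.69 (SE 0.21, adjusted p = 0.0314) for Rplp0, -1.06 (SE 0.23, adjusted p = 0.00762) for Rplp1 and -0.91 (SE 0.18, adjusted p = 0.0051) for Rplp2. The log2 ratio of Rplp1 to Rplp2 within a library did not separate the groups (difference -0.15, exact two-sided permutation p = 0.171, adjusted p = 0.24).

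Rpl5 and Rpl11 assemble with the 5S rRNA and, when assembly stalls, bind Mdm2, the ubiquitin ligase of p53. Rpl5 (chr5:107900502-107909005) had the largest fall of any member. Its level was 36.9, 33.0, 36.4 and 30.7 RPM in PBS 1 to 4 and 13.8, 14.0 and 13.04 RPM in DT 1 to 3. The groups were far apart, and PBS 2 was not the highest library here. The log2 change was -1.27 (SE 0.17, adjusted p = 0.000592). Rpl11 (chr4:136028265-136053428) was at 56.1, 77.3, 64.5 and 62.9 RPM in PBS and at 43.4, 47.9 and 36.9 RPM in DT, without overlap. It fell by 0.60 on the log2 scale (SE 0.17, adjusted p = 0.0217). The row of each of these genes holds a small share of the reads of its family, as described with the pseudogenes.

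The remaining large subunit members with the largest falls were Rpl36a, which lies near the exit site of the tRNA, and Rpl24, part of a bridge between the subunits. Rpl36a (chrX:134585654-134588062) was at 41.2, 74.0, 50.5 and 54.9 RPM in PBS 1 to 4 and at 21.6, 24.2 and 21.6 RPM in DT 1 to 3. DT levels were less than the lowest PBS level by a wide margin, and the log2 change was -1.23 (SE 0.21, adjusted p = 0.00193). Rpl24 fell from 64.5 ± 13.1 RPM (SD, n = 4) to 28.2 ± 1.88 RPM (SD, n = 3; log2 change -1.15, limma adjusted p = 0.00151). The Rpl24 row held 8.5% of the summed signal of the gene and its pseudogene copies. With the copies added its ratio of DT to PBS means was 0.509, against 0.437 for the row alone. Rpl38, a protein with a known role in translating Hox mRNAs, fell from 41.3 ± 11.4 to 20.2 ± 1.90 RPM (limma adjusted p = 0.0107). Rpl41, which encodes the smallest ribosomal protein, fell from 1223 ± 293 to 687 ± 35.2 RPM (limma adjusted p = 0.00973), and Rpl32 from 1329 ± 191 to 762 ± 37.1 RPM (limma adjusted p = 0.00381). Rpl13a, which can leave the ribosome to silence inflammatory mRNAs in interferon-treated myeloid cells, fell less, from 706 ± 119 to 476 ± 13.2 RPM (log2 change -0.56, limma adjusted p = 0.0208).

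In the small subunit Rps23 and Rps21 were among the members with the largest falls. Rps23, which sits at the decoding centre (chr13:90922958-90924950), was at 92.8, 155, 108 and 126 RPM in PBS 1 to 4 and at 54.9, 54.7 and 49.6 RPM in DT 1 to 3. The DT libraries lay well below PBS 1, the lowest PBS library, and the log2 change was -1.14 (SE 0.18, limma adjusted p = 0.00141). The Rps23 row held 9.7% of the summed signal of the gene and its pseudogene copies. With the copies added its ratio of DT to PBS means was 0.536, against 0.440 for the row alone. Rps21 fell from 91.1 ± 29.4 to 40.5 ± 3.26 RPM (log2 change -1.10, limma adjusted p = 0.00636).

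Small subunit members with known roles beyond the ribosome or in disease also fell. Rps6, the substrate of the S6 kinases downstream of mTOR (chr4:86854660-86857412), was at 119.8, 169, 121 and 139 RPM in PBS 1 to 4 and at 81.9, 74.6 and 69.8 RPM in DT 1 to 3. Rps19, the gene most often mutated in Diamond-Blackfan anaemia (chr7:24884371-24889806), was at 638, 842, 693 and 712 RPM in PBS and at 437, 468 and 444 RPM in DT. Rps26, which contacts mRNA ahead of the start codon (chr10:128624534-128626747), was at 154, 277, 193 and 212 RPM in PBS and at 102, 100.3 and 84.8 RPM in DT. In these 3 genes no DT library reached the lowest PBS library. The log2 changes were -0.84 (adjusted p = 0.00351), -0.67 (adjusted p = 0.0054) and -1.09 (adjusted p = 0.0026). Rps27a, which encodes a fusion of ubiquitin to a ribosomal protein, fell from 113 ± 29.5 to 58.9 ± 2.42 RPM (limma adjusted p = 0.00926). Rpsa, also known as a laminin receptor, fell from 706 ± 149.8 to 481 ± 22.5 RPM (log2 change -0.53, limma adjusted p = 0.0414).

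Abundant members of the small subunit fell as well. Rps3, which lines the mRNA entry channel, went from 1381 ± 216 to 961 ± 43.8 RPM (limma adjusted p = 0.0342) and Rps9 from 1320.4 ± 174 to 909 ± 32.5 RPM (limma adjusted p = 0.0232). Rps3 had the smallest fall of any small subunit member that passed the test, -0.51 on the log2 scale.

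Of the 72 calls, 50 held in each of the 19 settings tried, which comprise the reported one, 11 other ways of processing and 7 that left out a library. Among named members whose call was lost in at least 1 fit without a library, Rplp0, Rpl3, Rpsa and Rps27 passed in 2 of 7 such fits, with highest adjusted p of 0.113, 0.0956, 0.132 and 0.146. The first 3 were lost without PBS 3, PBS 4 or any DT library, and Rps27 without any library but PBS 2 and DT 1. Rps3, Rps9 and Rpl13a were lost without PBS 4 or any DT library, with highest adjusted p of 0.123, 0.101 and 0.0764, and Rpl11 without DT 1 or DT 3 (0.104). Of these 7 fits, the one without DT 3 was where Rpl38 and Rpl41 were lost, at 0.0507 and 0.0512. With median-ratio scaling and with the replicate block Rplp0, Rpl3, Rpsa, Rps27, Rps3, Rps9, Rpl13a and Rpl11 were lost too, and over all 18 alternatives their highest adjusted p was 0.125, 0.123, 0.197, 0.148, 0.195, 0.146, 0.129 and 0.113. The fit with no filter lost these except Rpl11, as well as Rpl41, and the fit with no intensity trend lost these except Rpl11 and Rps27. In 0 of the members with a negative change did any of the 19 settings give a change at or above 0.

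The 9 tested members that did not pass fall into 3 kinds. Rpl4, which lines the exit tunnel of the large subunit (chr9:64173375-64178666), was at 1551, 2106, 1563 and 1934 RPM in PBS 1 to 4 and at 1539, 1364 and 1462 RPM in DT 1 to 3. DT 1 came close to PBS 1 without overlap, and the log2 change was -0.29 (SE 0.16, limma adjusted p = 0.208). With quantile normalization Rpl4 passed, at -0.54 (adjusted p = 0.0231, range over its 18 alternatives 0.0231 to 0.832). Rpl7a (162 ± 45.6 against 103 ± 2.22 RPM, limma adjusted p = 0.0523), Rpl9 (25.2 ± 2.93 against 17.4 ± 3.11, 0.0763), Rpl10 (39.4 ± 8.27 against 27.4 ± 3.92, 0.0904), Rpl12 (22.2 ± 7.01 against 12.2 ± 3.22, 0.078), Rps12 (19.5 ± 6.41 against 11.9 ± 2.12, 0.147) and Rps13 (21.9 ± 2.88 against 15.1 ± 3.04, 0.0932) had ratios of DT to PBS from 0.552 to 0.696. Without PBS 1 the fits of Rpl7a, Rpl10, Rpl12, Rps12 and Rps13 passed, with adjusted p of 0.00263, 0.048, 0.008, 0.0115 and 0.0445.

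Rpl3l and Rps4l stood apart from the family. Rpl3l, a paralog of Rpl3 known from heart and skeletal muscle (chr17:24727820-24736143), was at 4.94, 4.83, 4.61 and 8.41 RPM in PBS 1 to 4 and at 4.45, 4.57 and 8.25 RPM in DT 1 to 3. The groups overlapped, with PBS 4 and DT 3 high and the others close together. The log2 change was 0.00 (SE 0.32, limma adjusted p = 0.997) and ran from -0.25 to 0.18 when single libraries were left out. Rps4l, annotated as a transcribed processed pseudogene (chr6:148354656-148355598), was at 3.52, 3.25, 3.06 and 2.98 RPM in PBS and at 4.13, 6.09 and 10.7 RPM in DT. All DT libraries were above all PBS libraries, and DT 3 was the highest. The log2 change of 0.84 (SE 0.32) did not pass (limma adjusted p = 0.0714, range over its 17 alternatives 0.0424 to 0.291), and it was 0.52 without DT 3 and 1.12 without DT 1. It was the 1 member higher in DT with median-ratio scaling (16.8% of all tested genes), with sample weights (15.5%) and without DT 1 (10.8%).

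Rpl10l and Rpl39l, paralogs known from the testis, were at or near 0. Rpl10l was listed at the file's offset of 0.0001 in 6 libraries and at 0.0239 RPM in DT 2. Rpl39l was at the offset in every PBS library and in DT 1, and at 0.0714 and 0.117 RPM in DT 2 and DT 3. A signal of 3 reads equals 0.0585 to 0.0904 RPM in these libraries, a limit that covers counting error only, and no fold is given for either gene.

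Paralog pairs showed how far related genes changed by unequal amounts, as a log2 ratio within each library. Of 9 pairs listed, 7 had both genes above the filter. Their smallest possible p over the 35 possible assignments of the libraries to 2 groups was 0.0286. It was reached by 4 pairs, with an adjusted p of 0.05, which is not under the threshold of 0.05. With so few libraries a pair could pass only if more than 4 pairs reached the smallest p. The ratio of Rpl36al, a retrogene-derived autosomal paralog, to the X-linked Rpl36a was 1.97, 1.93, 1.97 and 2.00 in PBS 1 to 4 and 2.54, 2.32 and 2.36 in DT 1 to 3. The DT values were all higher, by 0.44 on average (exact permutation p = 0.0286). Rpl36al itself fell, from 218 ± 50.3 to 124 ± 7.43 RPM (limma adjusted p = 0.00941), which is a log2 change of -0.79 beside the -1.23 of Rpl36a. The Rpl36a row held 17% of the summed signal of the gene and its pseudogene copies, and with the copies added the log2 ratios of DT to PBS means were -0.79 for Rpl36al and -1.05 for Rpl36a, which lie closer together.

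The same order held for the Rpl22l1 to Rpl22 ratio, whose mean was -1.19 ± 0.0786 (SD, n = 4) in PBS and -0.93 ± 0.0623 (SD, n = 3) in DT, without overlap (difference 0.26, exact permutation p = 0.0286). Rpl22, an RNA-binding ribosomal protein needed for T cell development, fell from 214 ± 43.7 to 97.5 ± 9.27 RPM (limma adjusted p = 0.00121), and its paralog Rpl22l1 from 92.8 ± 17.0 to 50.6 ± 3.61 RPM (limma adjusted p = 0.00472). The Rpl7l1 to Rpl7 ratio was -2.56, -2.65, -2.58 and -2.53 in PBS 1 to 4 and -1.31, -1.80 and -1.88 in DT 1 to 3, higher in all DT libraries (difference 0.91, exact permutation p = 0.0286). Rpl7 fell from 1077 ± 150.0 to 607 ± 49.4 RPM (limma adjusted p = 0.00339), while Rpl7l1 was at 179 ± 20.6 and 192 ± 32.5 RPM (limma adjusted p = 0.674). Rps4l to Rps4x gave the largest difference, 1.77 (exact permutation p = 0.0286). Rps4x fell from 605 ± 138 to 311 ± 18.9 RPM (limma adjusted p = 0.00445). The ratios of Rps27l, a known p53 target, to Rps27 (difference -0.26, exact permutation p = 0.571, adjusted p = 0.571) and of Rpl3l to Rpl3 (difference 0.58, exact permutation p = 0.229, adjusted p = 0.267) overlapped between the groups. The Rps27 and Rpl3 rows held only 1.6% and 19.5% of the summed signal of the gene and its pseudogene copies, which limits both ratios. Rps27l fell from 146 ± 34.8 to 71.4 ± 4.72 RPM (limma adjusted p = 0.00344), Rps27 from 15.2 ± 2.07 to 8.81 ± 2.05 (limma adjusted p = 0.0407) and Rpl3 from 393 ± 78.0 to 258 ± 10.9 (limma adjusted p = 0.0277). Rpl39 fell from 101 ± 19.2 to 45.1 ± 3.32 RPM (limma adjusted p = 0.00101), and its pair with Rpl39l was not tested.

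**Figure D4:**
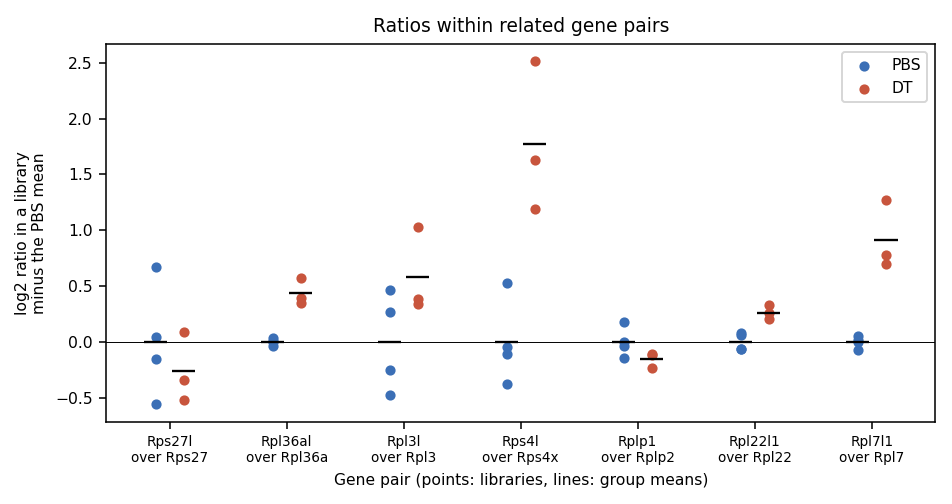
Log2 ratio of each tested paralog pair in every library, shown as the deviation from the mean of the 4 PBS libraries. For Rpl36al over Rpl36a, Rpl22l1 over Rpl22, Rpl7l1 over Rpl7 and Rps4l over Rps4x all 3 DT points lie above all 4 PBS points; the remaining 3 pairs overlap.

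GENCODE lists 81 members as protein coding and Rpl6l and Rps4l as processed pseudogenes. Reads of ribosomal protein mRNAs can also fall on pseudogene copies, and how the authors assigned reads that match several genes is not given in the sources used here. A search of annotated pseudogene and retrocopy transcripts against the members' transcripts (at least 90% identity over at least 80% of the copy) found 863 copies for 81 members. These copies held 58.1% to 59.0% of the signal of the families, meaning each member with its copies, in the PBS libraries and 58.4% to 58.6% in the DT libraries. For 51 of the members the own row held less than 50% of its family. The families summed to 5.08%, 7.90%, 5.90% and 6.34% of reads in PBS 1 to 4 and 3.68%, 3.84% and 3.61% in DT 1 to 3, a ratio of 0.589, against 0.590 for the members' own rows.

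The copies were mostly lower in DT too. Reads of member mRNAs can fall on them, so this is not separate evidence. Rpl6l counts both as a member and as a copy. Of 174 copies with a mean of at least 1 RPM, 123 were lower in DT (70.7%, against 18.6% of all tested genes and 17.5% of those that are neither members nor copies) and 0 higher. Among rows named as ribosomal protein pseudogenes, 55 of 82 tested were lower (67.1%) and 0 higher. For the family sums, 77 of 79 with a mean of at least 1 RPM had every DT library below every PBS library, as did 24.7% of all tested genes, and Rpl7a and Rpl3l overlapped. The median family ratio of DT to PBS was 0.546 in all and in each subunit, with 48 families from 0.5 to under 0.6. The spread of the log2 ratio over genes was 0.238 (SD) for the own rows and 0.202 for the families.

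For several members the own row and the family gave different ratios. The Rpl5 row held 2.64% of its family, most of the rest being on Gm15500, and the family ratio was 0.543 where the own row gave 0.398. The Rps6 row held 8% and had a ratio of 0.550, against 0.736 for its family. The Rps27 row held 1.6% of a family whose ratio was 0.531. Of the 8 coding members that did not pass, 5 (Rpl9, Rpl10, Rpl12, Rps12 and Rps13) held less than 15% of their family, and all 5 families separated DT from PBS with ratios of 0.519 to 0.703. Among the 71 coding members that passed, 17 held less than 15%. Gm15500 and this grouping by family were chosen after values were seen, and 22 of the 83 members also share exon sequence with another annotated gene, 18 of them on the opposite strand.

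**Figure D5:**
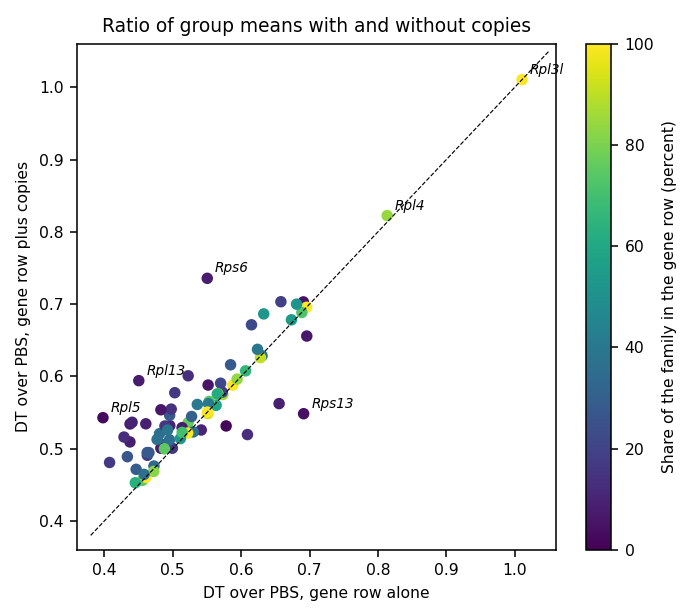
Ratio of the DT mean to the PBS mean for each member's own row (horizontal axis) against the ratio for its family, the own row with its copies (vertical axis), coloured by the percent of the family in the own row. Most families lie between 0.45 and 0.75, and members such as Rpl5 and Rps6 lie above the diagonal because the family ratio is closer to 1 than the own ratio; the dashed line marks equal ratios.

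The relative makeup of the pool was compared by scaling each library to its member sum, a choice made after seeing the data. On that scale 5 members were lower in DT (1.89% of all tested genes) and 2 higher (29.8%). The lower ones included Rpl13, Rpl22, Rpl36a and Rps23, with log2 changes of -0.39, -0.37, -0.51 and -0.41. Their own rows held 7.7%, 76.5%, 17.0% and 9.7% of their families. On the RPM scale, their family ratios of DT to PBS were 0.594, 0.456, 0.481 and 0.536, beside a median family ratio of 0.546. The Rpl13 family thus fell less than the median family, and the Rps23 family about as much. The higher ones were Rpl4 (0.46, limma adjusted p = 0.039) and Rps4l (1.45, limma adjusted p = 0.0118). The other members did not pass on this scale, which does not show that their proportions were equal.

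In other lists of the translation machinery more genes were lower than higher in DT. In some of these lists the share that was lower came near that of other tested genes. Among ribosomal protein genes that the naming rule does not reach, 5 of 6 were lower (83.3%, against 18.6% of all tested genes). They included Rps3a1 (827 ± 81.6 to 479 ± 14.0 RPM), Rack1 (975 ± 251 to 555 ± 34.3), Fau (28.7 ± 2.61 to 16.2 ± 0.690) and Rpl22l1. Fau encodes a ribosomal protein fused to a ubiquitin-like protein, and Rack1 encodes a scaffold on the small subunit. Of 10 elongation factors and related genes 5 were lower (50%, against 18.6% of all tested genes and 34.3% of those at or above 100 RPM) and 0 higher, with a median log2 change of -0.70, among them Tpt1, Eef1b2 and Eef1e1 at -0.82, -0.91 and -1.10. Of 44 initiation factors and related genes 15 were lower and 0 higher, with a median of -0.46. The 34.1% lower lay above the 18.6% of all tested genes but at the 34.3% of those at or above 100 RPM. Those with the smallest p were Eif5b, Eif3f and Pabpc1, with log2 changes of -0.99, -1.54 and -0.90.

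Of 55 genes for ribosome assembly and rRNA synthesis 11 were lower (20%, against 18.6% of all tested genes) and 0 higher (13.4% of all), with a median log2 change of -0.46 and 52 negative changes, and the count of lower genes ran from 1 to 40 when single libraries were left out. They included Nop10 (251 ± 71.9 to 121 ± 10.5 RPM), Brix1 (log2 change -0.79) and Npm3 (log2 change -1.76). Of 21 genes that control ribosomal protein synthesis 10 were lower (47.6%, against 18.6% of all) and 1 higher (13.4% of all). Sesn2, a stress-induced inhibitor of mTOR complex signalling, rose from 3.27 ± 1.56 to 16.2 ± 3.19 RPM (log2 change 2.07, limma adjusted p = 0.00175). Yy1, a zinc-finger transcription factor, fell from 39.7 ± 5.98 to 17.7 ± 3.99 RPM, and Trp53, which encodes p53, from 348 ± 50.9 to 206 ± 8.95 RPM. The mitochondrial ribosome is a separate particle, and of its 78 protein genes 28 were lower (35.9%, against 18.6% of all) and 1 higher (13.4% of all). Their median was -0.49, and the lower ones included Mrps36 (-1.22), Mrpl52 (-1.64) and Mrps17 (-0.66). These counts beyond the ribosomal proteins varied by more than 1.5 times between settings, as given in the closing section, and the differences between lists were not tested.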

How the data were processed

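RNA from 7 samples was analysed, 4 PBS and 3 DT, described as biological replicates; the p-values measure the spread between these samples. A SMARTer kit for low input was used on 1 ng of RNA with 14 amplification cycles, and single 50-base reads were sequenced, per the labels' protocols. Per the submitters' processing notes, STAR 2.5.3a, Partek and mm10 were used; for annotation, strand use and reads with several matches, no setting is stated in what was used here. Deposited values, 1 table labelled FPKM by the authors, were read as RPM: in each library 1037 to 1225 genes of widely different length shared the same lowest step, which implied 33200000 to 51200000 reads. The design had assumed FPKM; the test was kept. Amplified reads are not independent molecules, so floors cover counting error only.

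The 14100 genes averaging 1 RPM or more were tested as log2(RPM + 1), which understates changes of low genes. The test used limma 3.58.1 in R 4.3.3 (intensity trend, two-sided, Benjamini-Hochberg, threshold 0.05). The method was tested on simulated data with independent genes and a common spread in both groups. The members here moved together and varied more in PBS, which that simulation does not cover. Paralog ratios were compared by exact permutation over 35 splits. Copies were found with BLAST+ 2.17.0. Positions are from GENCODE on mm10. The members and gene lists were chosen with earlier results of these data known. Members named are the stalk genes, 11 with known roles, those in paralog pairs, the 3 most abundant, the 3 largest and the 3 smallest falls of each subunit, and all that did not pass; from each other list up to 3 genes with the smallest p. A few genes that this rule takes are not reported here. Rpl13, Rps18, Rpl28 and Gm15500 were chosen after their values were seen. Alternatives covered pseudocount, filter, scaling, trend, weights, a replicate block and leaving out each library.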

Additional observations from a re-analysis of the deposited data

Results flagged for a closer look

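Rpl3l in PBS 4 was at 8.41 RPM, far above the 4.61 to 4.94 RPM of PBS 1 to 3: its gap to the nearest of the others, relative to the range of the group, was above Dixon's critical value for 4 samples. Of 59 results examined this was the only one, and chance marks about 1 in 20 groups. DT 3 had a similar level, 8.25 RPM, in a group of 3 that this rule does not cover.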

How the results depend on the processing

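The count of members lower in DT ran from 52 without a filter to 75 with sample weights over the 11 other ways of processing, and from 50 to 76 when single libraries were left out, where the median log2 change ran from -1.02 to -0.76. In the large subunit, leaving out single libraries gave 29 to 46 lower and 0 higher, and in the small subunit 21 to 30 lower and 0 to 1 higher. The 1 member higher in DT with median-ratio scaling, no trend, sample weights or without DT 1 was Rps4l, of the small subunit (range over the fits without a library 0 to 1). Median-ratio scaling moved the median of all tested genes from -0.23 to -0.02 and that of the members from -0.89 to -0.66, with 56 members lower (9.37% of all tested genes lower and 16.8% higher). Scaling to the member sum, added after seeing the data and built to remove a common change, left 5 lower and 2 higher members with a median of -0.15 (large 3 and 1, -0.14; small 2 and 1, -0.17). The large to small ratio differed by 0.0151, by -0.0148 with quantile normalization (the cause was not tested) and by 0.00776 to 0.0253 without single libraries.

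The deviations of same-numbered PBS and DT samples from their group means had correlations of 0.0419, 0.0485 and 0.0103. For samples with different numbers the correlations ran from -0.0482 to 0.0484. All were small, and with so few libraries they cannot show whether same-numbered samples were prepared together. With the replicate block 59 members were lower (35 large, 24 small), and initiation 7, assembly 3, control 5 and mitochondrial genes 14 lower and 0 higher. The counts of other lists depended on the setting, and the cause was not tested. Of all tested genes 18.6% were lower in the reported setting. This share was 5.75% (no filter), 9.37% (median-ratio), 11.2% (replicate block), 16.8% (no trend), 23.1% (scaling without the members) and 27.1% (weights). Without single libraries it ran from 8.61% (without DT 3) to 25.7% (without PBS 1). The share that was higher was 13.4% in the reported setting, 6.1% (no filter), 16.8% (median-ratio) and 9.86% to 14.9% (without single libraries). Lower elongation factors numbered 3 with median-ratio scaling and 3 to 7 without single libraries, and 1 was higher without a filter. Lower initiation factors numbered 6 (median-ratio), 9 (no trend), 26 (weights) and 6 to 30 (without single libraries). Lower assembly genes numbered 2 (no filter), 3 (median-ratio), 4 (no trend), 26 (weights) and 1 to 40 (without single libraries; 40 without PBS 1 and 1 without DT 3). Lower control genes numbered 5 (median-ratio) and 5 to 13 (without single libraries). Lower mitochondrial ribosomal protein genes numbered 18 (no filter), 11 (median-ratio), 43 (scaling without the members), 50 (weights) and 13 to 55 (without single libraries), with 2 higher (median-ratio), 0 (no trend) and 0 to 2 (without single libraries). Named pseudogenes numbered 36 to 63 lower and 0 to 1 higher without single libraries. Depth limited only Rpl10l and Rpl39l, the members under the filter.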
